A study of Oryctolagus cuniculus with 24 samples.

Results

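Lymphocyte activation and costimulation molecules were followed in rabbit peripheral blood mononuclear cells (PBMCs). The genes were CD69, CD28, CTLA4, ICOS, CD80, CD86, CD40, CD40LG and IL2RA, and a gene was taken where a probe of the array carried its symbol, through the gene name, the RefSeq accession or the gene number in the files. Of these 9 genes, 8 were found, with 18 probes, among 28894 genes measured. IL2RA was not found by name and was not analysed here. CD69 was reached through the description of its probes, which gives a CD69 antigen-like gene that carries no symbol in the table used. The cells came from the blood of adult female rabbits of the New Zealand White breed. There were 4 animals, called rabbits 1, 2, 4 and 5, and each gave 1 array per condition. PBMCs were mock-stimulated, stimulated with lipopolysaccharide (LPS) at 1 µg/mL, or stimulated with a mixture of phorbol myristate acetate (PMA) at 10 ng/mL and ionomycin at 1 µg/mL (PMA-Ionomycin). They were harvested after 4 h (T4) or 24 h (T24), which gave 6 groups of 4 arrays. All the cells were cultured in vitro, and no cell type was separated from the PBMCs before stimulation.

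A T lymphocyte needs a signal through its antigen receptor and a costimulatory signal, classically given when CD28 binds CD80 or CD86 on an antigen-presenting cell. CTLA4 binds the same ligands and restrains the response, and ICOS is a relative of CD28 with its own ligand. CD40LG on activated T cells binds CD40 on B cells, monocytes and dendritic cells, and CD69 is a membrane lectin that appears early on activated lymphocytes. PMA activates protein kinase C and ionomycin raises intracellular calcium, so that together they act below the antigen receptor, whereas LPS acts through TLR4, mostly on monocytes and B cells.

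The measurements rest on 60-base probes whose sequences are in the array files. Those of CD28, CTLA4 and ICOS are shown because the results turn on these receptors, whose probes lay within 243 kb of chromosome 7 of the oryCun2 build. The probes of CD40LG and of CD69, the ligand and the activation antigen that rose with them, are shown for the same reason. Capitals mark the bases that a probe shares with the other probe shown of the same gene or, for CTLA4, with all 4 other probes, so that overlapping probes are not taken for independent measurements.
CD28 probe 1: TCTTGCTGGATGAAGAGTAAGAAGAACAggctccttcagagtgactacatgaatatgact
CD28 probe 2: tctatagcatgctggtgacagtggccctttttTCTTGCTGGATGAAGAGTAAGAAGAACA
CTLA4 probe 1: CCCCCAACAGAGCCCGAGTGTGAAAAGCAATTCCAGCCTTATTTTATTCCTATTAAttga
ICOS probe 1: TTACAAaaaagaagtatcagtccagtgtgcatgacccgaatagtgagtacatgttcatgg
ICOS probe 2: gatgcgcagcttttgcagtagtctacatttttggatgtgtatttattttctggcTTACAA
CD40LG probe 1: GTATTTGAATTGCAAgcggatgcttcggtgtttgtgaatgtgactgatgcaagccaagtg
CD40LG probe 2: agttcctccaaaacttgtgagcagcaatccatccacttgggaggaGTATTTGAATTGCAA
CD69 probe 2: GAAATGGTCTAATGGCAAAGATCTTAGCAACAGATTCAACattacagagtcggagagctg
CD69 probe 3: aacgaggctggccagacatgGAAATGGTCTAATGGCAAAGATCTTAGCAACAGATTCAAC

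The CD28 probes were placed at chr7:144386177-144391839 and shared 28 bases. Each covered 5631 bases of the build with 60 bases of sequence, so the placement crossed a gap in the alignment. The 5 CTLA4 probes, at chr7:144542311-144542374, were shifted by single bases and shared 56 bases, which makes them close to 1 measurement repeated. The ICOS probes, at chr7:144627291-144629269, shared only 6 bases, and probe 1 crossed a gap of the same kind. CD40LG lay at chrX:111222334-111222438 with 15 shared bases. CD69 lay at chr8:34334003-34335187, where probes 2 and 3 shared 40 bases and probe 1 lay apart from them. CD80 had 2 probes that shared 59 bases at chr14:99244244-99244304, and CD86 had 1 probe on the minus strand at chr14:96930484-96930543. The single CD40 probe had no listed position. The annotation of this build was not used here, so exons and introns are not named.

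Levels are given as log2 of the median spot signal minus the median over the spots of that array, with probes averaged per gene, and levels of different genes are not set against each other. Fold changes (FC) are differences between group means of log2 levels put back on the linear scale, so they are ratios of geometric means. A gene was called differentially expressed (DE) where the adjusted p of limma, with Benjamini-Hochberg adjustment over the 28778 genes tested, was under 0.05. A spot is well above background where the scanner software marks it so, and this held for 51.4% to 62.3% of spots per array. No spot of a member probe was saturated. The array of rabbit 2 after PMA-Ionomycin at T4 stood apart from the other 3 arrays of its group, with 52.6% of spots well above background against at least 59.0% on the others. Without this array the 6 members DE after PMA-Ionomycin at T4 were still DE, with log2 FC of 3.81 for CD69, 2.51 for CTLA4, 1.02 for CD28, 1.11 for ICOS, 1.10 for CD40LG and 0.87 for CD40. The 24 arrays lay on 3 slides that each held all 6 groups. In mock-stimulated cells at T4, 5 of 6 T-cell markers, 5 of 5 B-cell markers and 7 of 8 monocyte and macrophage markers found were well above background on 4 of 4 arrays.

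After PMA-Ionomycin at T4, 6 of 8 members were DE and all 6 rose, where 22.8% of all genes tested were DE, 13.5% with higher and 9.36% with lower levels. With the processed signal the split over all genes was 3291 higher and 3705 lower, in place of 3881 and 2694. The risers were CD69, CTLA4, CD28, ICOS, CD40LG and CD40, and the stimulated and mock-stimulated arrays did not overlap for these 6, as for 21.4% of all genes. The measured FC was 12.8 for CD69 and 5.52 for CTLA4. For CD28 and CD40LG only lower bounds are read, 2.42 and 1.83, since both were not well above background in mock-stimulated cells. CD86 and CD80 did not pass the test. The median log2 FC was 1.09 over the 8 members and 0.05 over all genes. In bulk PBMCs, fewer cells of a type and less RNA per cell cannot be told apart, and neither can more cells and more RNA per cell.

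At T24, 5 of 8 members were DE and all 5 had higher levels, where 33.7% of all genes were DE, 22.2% with higher and 11.5% with lower levels. This split depended on the scaling, with 6386 genes higher and 3308 lower as given, and 4674 and 5413 with the processed signal, 4980 and 4439 with quantile normalization, 4928 and 4372 with normexp and quantile normalization and 5343 and 5120 in the deposited log2 table. The members DE were CTLA4, CD69, ICOS, CD86 and CD40. CTLA4 had a FC of 8.73 and CD69 a measured FC of 5.62 against mock levels near background, whereas CD28 and CD40LG no longer passed the test. The groups did not overlap for 4 members, as for 32.2% of all genes. Over the members the median log2 FC was 0.81, and over all genes 0.03. Within the slides, the 11 called differences from mock at T4 and T24 had the same direction in 33 of 33 values.

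The size of several responses, and with it the order of the members, depended on which signal of the scanner was used. With the processed signal in place of the median spot signal, the log2 FC after PMA-Ionomycin at T4 was 4.13 for CD69, 3.15 for CD40LG, 3.09 for CD28, 2.81 for CTLA4 and 2.23 for ICOS, against 3.67, 1.05, 1.29, 2.46 and 1.13 as measured from the median signal. At T24 it was 3.80 for CD69, 3.36 for CTLA4 and 2.01 for ICOS, against 2.49, 3.13 and 0.85. Apart from CTLA4, these genes had at least 1 mock group at or near background. Each of these 8 differences passed the test with both signals.

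After LPS, 0 of 8 members were DE by limma at T4, where 1.03% of all genes were DE, and 0 of 8 at T24, where 1.22% were. At each time 2 members had an unadjusted p under 0.05 by the same test, CD69 and CD86 at T4 and CD80 and CD86 at T24, as had 13.9% and 10.8% of all genes. The arrays did not overlap for 0 members at T4 and for 2 at T24, as for 7.34% and 4.34% of all genes. Members had a median log2 FC of 0.15 at T4 and 0.16 at T24, against 0.06 and -0.03 over all genes.

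**Figure D1:**
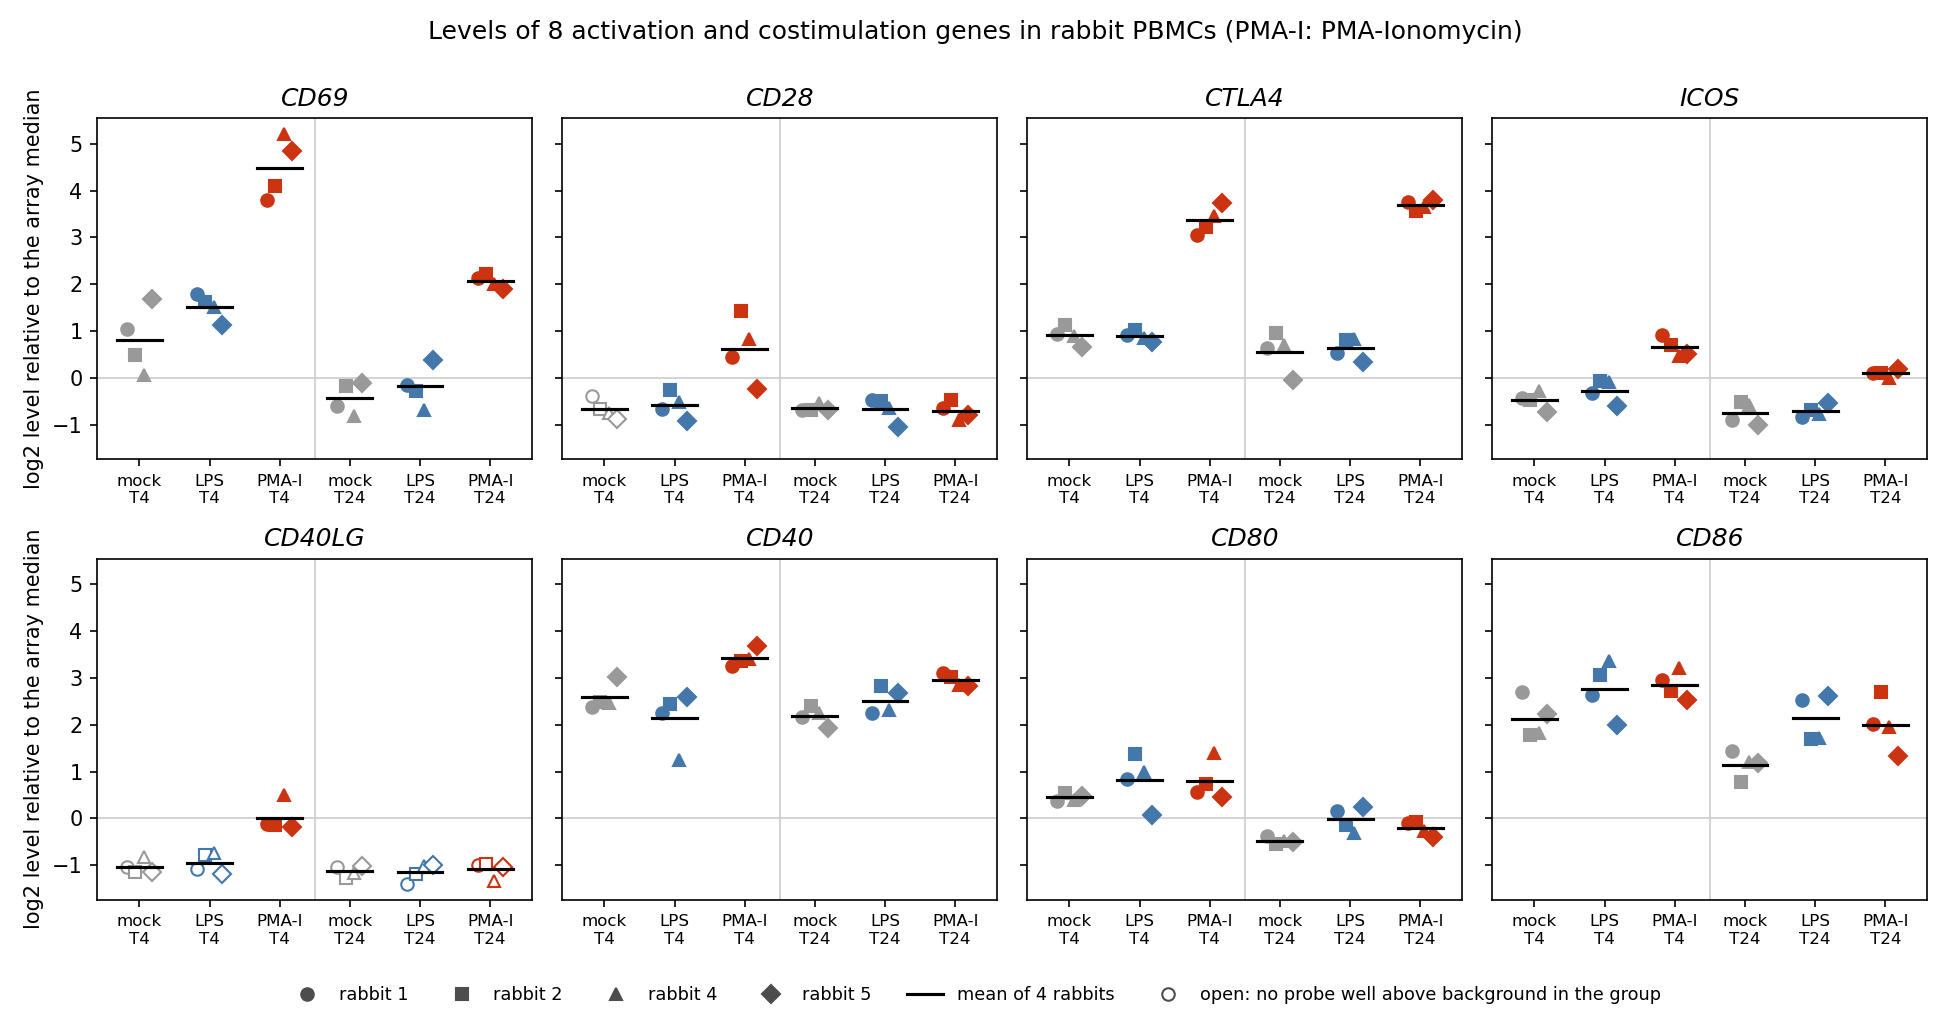
Log2 levels relative to the array median (y axis) of the 8 genes in the 6 groups (x axis), with 1 symbol per rabbit and a line at the mean of 4 rabbits. Open symbols mark groups in which no probe of the gene was well above background on any array. CTLA4 stayed between 3.06 and 3.79 after PMA-Ionomycin at both times, whereas CD28 and CD40LG lay above the mock arrays at T4 and among them at T24.

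CD69, the early activation antigen, had the largest measured log2 FC of the members at T4. Its level after PMA-Ionomycin at T4 was 3.80, 4.10, 5.21 and 4.86 in rabbits 1, 2, 4 and 5. In mock-stimulated cells at T4 it was 1.04, 0.49, 0.06 and 1.69, so the lowest stimulated array lay well above the highest mock array. The log2 FC was 3.67 (standard error (SE) 0.31, adjusted p = 4.9e-09, limma), and the differences within a rabbit ran from 2.76 to 5.16. At T24 the stimulated arrays lay between 1.90 and 2.21 and the mock arrays between -0.81 and -0.10, with a log2 FC of 2.49 (SE 0.31). The 3 CD69 probes gave log2 FC of 3.54 to 3.81 at T4 and 2.38 to 2.61 at T24.

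CD69 had a lower measured level in culture without stimulation at T24. Most of its probes were well above background on 4 of 4 mock arrays at T4 and on 1 of 4 at T24, so the T24 mock level is near background. The mock level went from 0.82 ± 0.71 (SD, n = 4) at T4 to -0.43 ± 0.34 at T24, a log2 FC of -1.24 (SE 0.31, adjusted p = 0.0071, limma) with lower levels in 4 of 4 rabbits. This call was lost without rabbit 1 (adjusted p = 0.086), and the log2 FC was then -1.11. The measured response to PMA-Ionomycin differed between the times by -1.18 on the log2 scale (SE 0.43, adjusted p = 0.054), short of the threshold, and it passed in 8 of 16 alternatives. With the processed signal it was -0.32 (adjusted p = 0.84). With the rabbit as a block its adjusted p was 0.044, and without the PMA-Ionomycin T4 array of rabbit 2 it was 0.040.

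CTLA4, the receptor that competes with CD28 for its ligands, kept its high level. After PMA-Ionomycin the arrays stood at 3.06, 3.23, 3.45 and 3.74 at T4 in rabbits 1, 2, 4 and 5, and at 3.75, 3.56, 3.65 and 3.79 at T24. The mock arrays were at 0.93, 1.14, 0.90 and 0.65 at T4 and at 0.63, 0.96, 0.70 and -0.04 at T24. No stimulated array overlapped a mock array at either time. The log2 FC was 2.46 at T4 (SE 0.18, adjusted p = 4.6e-10) and 3.13 at T24 (SE 0.18, adjusted p = 2.8e-12), both by limma.

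The CTLA4 response was larger at T24 than at T4 by 0.66 on the log2 scale, with the same direction in 4 of 4 rabbits, but it missed the threshold (SE 0.25, adjusted p = 0.059, limma). With the rabbit as a block the adjusted p was 0.048, and without the PMA-Ionomycin T4 array of rabbit 2 it was 0.104, for a difference of 0.61. It passed in 3 of 16 alternatives. Tested singly by limma, only CTLA4 probe 1 passed, with 1.05 (adjusted p = 0.042). The other probes gave 0.51 to 0.66 (adjusted p of 0.16 to 0.18). A further probe that only the gene list of the study assigns to CTLA4 was kept apart, and it shares 55 bases with the other CTLA4 probes. Its log2 FC after PMA-Ionomycin was 2.86 at T4 and 3.66 at T24, a difference of 0.80 that passed the test (adjusted p = 0.018, limma).

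CD28, the costimulatory receptor itself, passed the test at T4 and not at T24. In mock-stimulated cells at T4 it was not well above background on any array, with levels of -0.38, -0.67, -0.75 and -0.87 in rabbits 1, 2, 4 and 5. After PMA-Ionomycin at T4 it was well above background on 4 of 4 arrays, at 0.45, 1.43, 0.83 and -0.23. Since the mock value is a bound, CD28 was at least 2.42-fold higher, and its measured log2 FC was 1.29 (SE 0.23, adjusted p = 0.00015, limma). The bound sets the mean of the stimulated arrays against, on each mock array, the higher of the CD28 signal and the lowest signal of any probe well above background. The highest of the 4 stimulated arrays was that of rabbit 2, the array that stood apart. Without that array the log2 FC was 1.02 (adjusted p = 0.000558).

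At T24 the stimulated and mock-stimulated arrays overlapped for CD28. The arrays stood between -0.89 and -0.48 after PMA-Ionomycin and between -0.69 and -0.54 in mock-stimulated cells. In both groups CD28 probe 1 was not well above background on any array, and probe 2 was so on 2 of 4 mock and 1 of 4 stimulated arrays. The measured log2 FC of -0.05 (SE 0.23) is a difference between levels near background and sets no limit on the FC. The measured response differed between the times by -1.34 on the log2 scale (SE 0.32, adjusted p = 0.0033, limma), a value with T24 levels near background, where 22.6% of all genes tested had a response to PMA-Ionomycin that differed between the times and 8.18% had a lower one at T24 (4148 higher and 2353 lower, or 3300 and 2958 with the processed signal). The 2 probes gave log2 FC of 1.12 and 1.46 at T4 and of -0.05 and -0.06 at T24. Without the PMA-Ionomycin T4 array of rabbit 2 the measured difference was -1.07 (adjusted p = 0.0058), and with the processed signal it was -3.59 (adjusted p = 0.0015). The difference between the times was called without rabbit 1, 2 or 5 and lost without rabbit 4 (adjusted p = 0.081), where it was -1.15.

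ICOS, the inducible relative of CD28, rose at both times. The arrays were at 0.91, 0.71, 0.47 and 0.51 after PMA-Ionomycin at T4 against -0.43, -0.46, -0.28 and -0.73 in mock-stimulated cells. At T24 they lay between 0.01 and 0.18 against -1.01 to -0.51. The measured FC was 2.19 at T4 (log2 FC 1.13, SE 0.14, adjusted p = 1.8e-06) and 1.81 at T24 (log2 FC 0.85, SE 0.14, adjusted p = 3.3e-05), by limma. The 2 probes, printed above, disagreed on the size at T24, where probe 1 gave a log2 FC of 0.36 and probe 2 a log2 FC of 1.35. Each probe passed the test on its own. At T4 they gave 0.93 and 1.33. In mock-stimulated cells probe 1 was not well above background on any array at either time, and probe 2 was so on 3 of 4 arrays at T4 and on 1 of 4 at T24, so both FC are set against levels near background.

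CD40LG, the T-cell ligand of CD40, was seen above background only after PMA-Ionomycin at T4. In the other 5 groups neither of its probes was well above background on any array. After PMA-Ionomycin at T4 the arrays stood at -0.11, -0.15, 0.50 and -0.19, against -1.04, -1.14, -0.83 and -1.14 in mock-stimulated cells. CD40LG was at least 1.83-fold higher, by the same bound as for CD28, with a measured log2 FC of 1.05 (SE 0.15, adjusted p = 9.2e-06, limma). Rabbit 4 was the highest of both groups.

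At T24 CD40LG was not well above background in either group, so no FC is read from the measured values there. The fit called the measured responses different between the times (-1.01 on the log2 scale, SE 0.21, adjusted p = 0.00081, limma), but 3 of the 4 groups behind this value were not well above background, so no size is read from it. CD28 and CD40LG were the 2 of 8 members whose response to PMA-Ionomycin was called different between T4 and T24, a share near the 22.6% of all genes tested. For ICOS, CD40, CD80 and CD86 this difference had adjusted p of 0.43, 0.93, 0.94 and 0.92. The ICOS probes disagreed on it, with -0.57 (adjusted p = 0.029) for probe 1, which was not well above background on any mock array, and 0.02 (adjusted p = 0.98) for probe 2.

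CD40, the receptor of CD40LG on antigen-presenting cells, was well above background on every array. After PMA-Ionomycin at T4 its level was 3.26, 3.36, 3.40 and 3.69 in rabbits 1, 2, 4 and 5, against 2.38, 2.49, 2.46 and 3.02 in mock-stimulated cells. The log2 FC was 0.84 (SE 0.22, adjusted p = 0.0052, limma), with differences of 0.67 to 0.94 within a rabbit. At T24 it was 2.95 ± 0.14 against 2.19 ± 0.20 (SD, n = 4), without overlap, with a log2 FC of 0.76 (SE 0.22, adjusted p = 0.0076, limma). The T24 call was lost with quantile normalization (log2 FC 0.45, adjusted p = 0.098) and without rabbit 1 (log2 FC 0.70, adjusted p = 0.073), and it was lost too with the processed signal and with normexp and quantile normalization. With 1 rabbit left out the log2 FC ran from 0.70 to 0.82.

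CD80 and CD86, the ligands that CD28 and CTLA4 share, did not pass the test at T4, and at T24 only CD86 did. CD86 after PMA-Ionomycin at T4 was 2.95, 2.73, 3.21 and 2.54 against 2.71, 1.78, 1.82 and 2.23 in mock-stimulated cells, so the groups overlapped (log2 FC 0.72, SE 0.30, adjusted p = 0.092, limma). It passed in 4 of 15 alternatives, those without rabbit 5 (adjusted p = 0.041), with arrays of the comparison only (adjusted p = 0.044), with array weights (adjusted p = 0.024) and with slide as a block (adjusted p = 0.041), and 7 members were then DE at T4. At T24 it was 2.02, 2.70, 1.95 and 1.33 against 1.44, 0.78, 1.20 and 1.19, which again overlapped (log2 FC 0.85, SE 0.30, adjusted p = 0.030, limma). The T24 call was lost in 7 of 15 alternatives. These were without rabbit 2, where the log2 FC was 0.49, without rabbit 1 or 4, in the deposited log2 table (0.70, adjusted p = 0.062), with the processed signal, with normexp, and with quantile normalization (0.65, adjusted p = 0.13). CD80 had log2 FC of 0.34 at T4 (adjusted p = 0.31) and 0.27 at T24 (adjusted p = 0.39), both by limma.

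Both ligands had lower levels at T24 than at T4 in culture without stimulation. In mock-stimulated cells CD80 went from 0.37, 0.54, 0.39 and 0.49 at T4 to -0.38, -0.55, -0.49 and -0.50 at T24, without overlap. At T24 both of its probes were well above background on 2 of 4 of these arrays, against 4 of 4 at T4. Its measured log2 FC was -0.93 (SE 0.21, adjusted p = 0.0032, limma). CD86 went from 2.13 ± 0.43 (SD, n = 4) to 1.15 ± 0.28, a log2 FC of -0.98 (SE 0.30, adjusted p = 0.030, limma), and this call was lost without rabbit 1, 2 or 4. With 1 rabbit left out the log2 FC ran from -1.10 to -0.89. With CD69, these were the 3 of 8 members DE between mock-stimulated cells at T24 and T4, where 12.6% of all genes were DE and 5.15% were lower at T24 (2138 higher and 1482 lower, or 1695 and 1780 with the processed signal). These 3 did not overlap between the times, as for 14.2% of all genes. The other 5 members had adjusted p between 0.26 and 0.97.

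**Figure D2:**
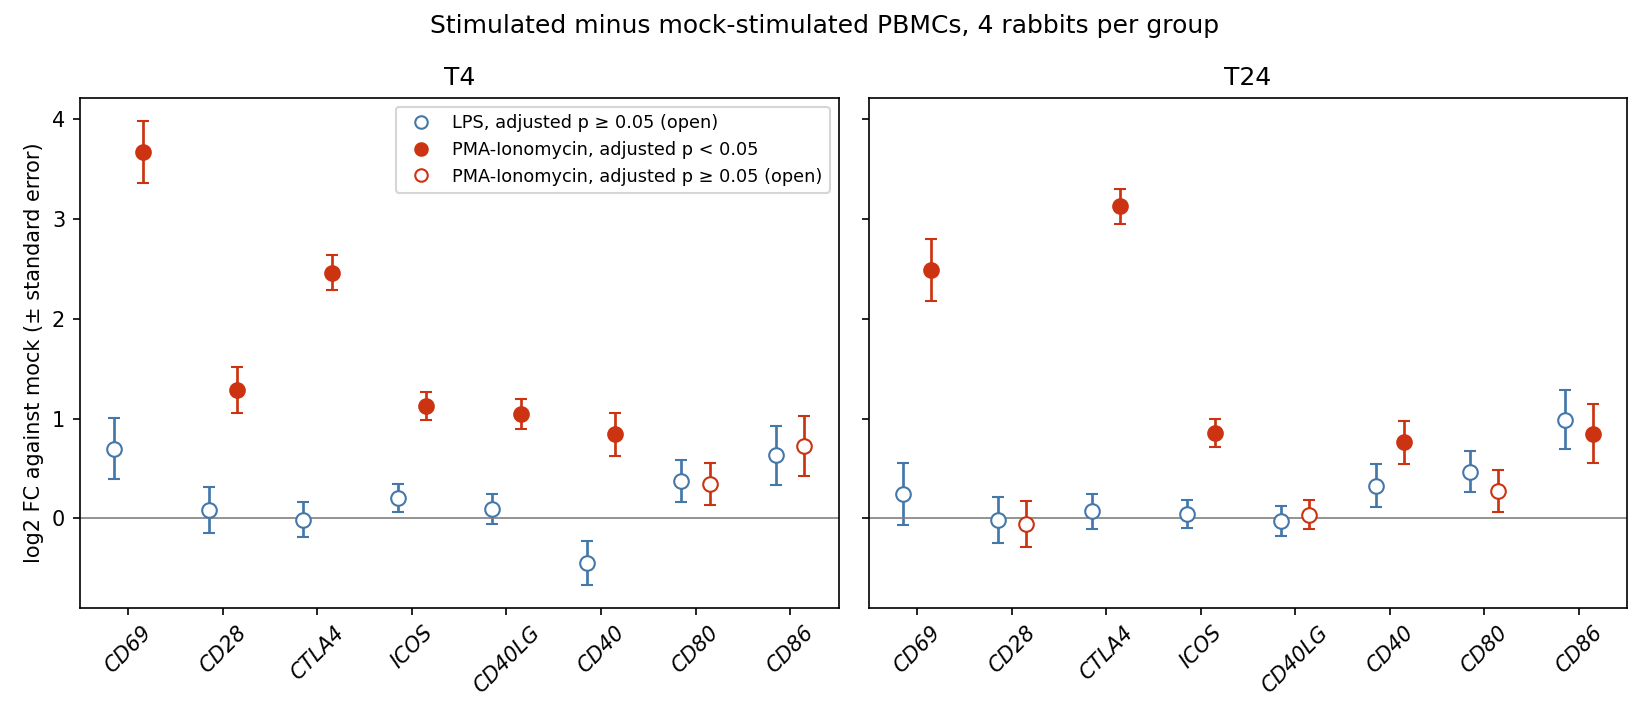
Log2 FC against mock-stimulated cells (y axis) for each gene (x axis) at T4 (left) and T24 (right), with bars of 1 standard error from limma. Filled symbols passed an adjusted p of 0.05, and each LPS symbol is open. After PMA-Ionomycin 6 genes passed at T4 and 5 at T24, and at T24 CD28 and CD40LG lay near 0, at levels near or below background.

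The LPS responses did not pass the test in any member. CD86 had the largest, with levels of 2.52, 1.70, 1.72 and 2.63 in rabbits 1, 2, 4 and 5 at T24 against 1.44, 0.78, 1.20 and 1.19 in mock-stimulated cells. These arrays did not overlap, as for 4.34% of all genes, and the log2 FC of 0.99 did not pass the test (SE 0.30, 95% confidence interval 0.37 to 1.61, adjusted p = 0.13, limma). CD80 at T24 did not overlap either, at -0.31 to 0.25 against -0.55 to -0.38 (log2 FC 0.47, adjusted p = 0.40). CD69 at T4 stood at 1.12 to 1.79 against 0.06 to 1.69 in mock-stimulated cells, with overlap (log2 FC 0.70, SE 0.31, adjusted p = 0.30). It was higher in 3 of 4 rabbits, with -0.57 in rabbit 5, and the log2 FC ran from 0.44 to 1.12 with 1 rabbit left out. CTLA4 had a log2 FC of -0.01 at T4, with a 95% confidence interval of -0.38 to 0.35, and of 0.07 at T24. CD40 was lower in 4 of 4 rabbits at T4 and higher in 4 of 4 rabbits at T24, with log2 FC of -0.45 and 0.33 that did not pass. With 1 rabbit left out these ran from -0.59 to -0.19 and from 0.19 to 0.42, and rabbit 4 alone had -1.21 at T4. Their difference, 0.78, had an adjusted p of 0.20 by limma. The LPS T4 array of rabbit 4, behind the -1.21 of CD40, had 51.4% of spots well above background. The other LPS T4 arrays had at least 55.8%. Between the times, 0 of 8 responses to LPS were called different by limma, where 1.95% of all genes were, and CD40 alone had an unadjusted p under 0.05, as had 16.3% of all genes. After LPS 2 of 8 monocyte and macrophage markers fell at T4 and 1 at T24, 1 of 4 dendritic-cell markers fell at T4 (ITGAX, log2 FC -1.35) and 1 of 4 neutrophil markers fell at T24 (MPO, log2 FC -1.63). Their part in these values was not tested.

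Set directly against LPS at the same time, PMA-Ionomycin gave higher levels of CD69, CTLA4, CD28, ICOS, CD40LG and CD40 at T4, which is 6 of 8 members where 26.8% of all genes were DE and 17.7% were higher. The log2 FC was 2.98 for CD69, 2.48 for CTLA4, 1.29 for CD40, 1.21 for CD28 and 0.93 for ICOS. The last 2 are measured values against LPS levels near background, since both probes were well above background on 0 of 4 LPS arrays for CD28 and on 1 of 4 for ICOS. CD40LG was at least 1.77-fold higher. At T24 the members DE were CD69, CTLA4 and ICOS (3 of 8, where 36.2% of all genes were DE and 23.7% were higher), with log2 FC of 2.25, 3.06 and 0.81, where both ICOS probes were well above background on 0 of 4 LPS arrays. The arrays did not overlap for 6 members at T4 and for 4 at T24, as for 24.8% and 36.2% of all genes. CD80 and CD86 did not pass this test at either time, with adjusted p of 0.94 and 0.88 at T4 and 0.58 and 0.82 at T24. Over all genes the split of higher and lower calls against LPS, 5102 and 2606 at T4 and 6815 and 3597 at T24, depended on the scaling. At T4 it was 3946 and 6140 with the processed signal, 4469 and 4393 with quantile normalization, 4423 and 4311 with normexp and quantile normalization and 4565 and 4094 in the deposited log2 table. At T24 it was 5126 and 5561, 5432 and 4826, 5399 and 4736, and 5663 and 5366 in the same order. Both comparisons share the stimulated arrays with the comparisons against mock, so they are no separate evidence for the PMA-Ionomycin levels.

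Pairs of genes that act on the same partner were compared within each array, since the difference of 2 log2 levels on 1 array does not depend on any offset common to that array, though it does depend on the signal used and on quantile normalization. The value itself compares different probes and is read only as a change between groups. An exact two-sided permutation test of 4 against 4 arrays was used for 16 comparisons, where the smallest p it can give is 0.0286. The test takes the arrays as independent, although the same rabbits gave both groups, so its p leaves out this pairing. At that p, 4 comparisons stood, and after adjustment over the 16 comparisons each had an adjusted p of 0.11, so none passed.

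CTLA4 relative to CD28 went up by 3.18 on the log2 scale after PMA-Ionomycin at T24, from 1.21 ± 0.42 (SD, n = 4) to 4.39 ± 0.25 (exact permutation p = 0.0286), with 2.40 to 3.94 within a rabbit. CD28 was at or near background in both T24 groups, so the change in this pair is mostly that of CTLA4. At T4 the same difference went from 1.57 ± 0.21 to 2.75 ± 0.90 and was positive in 3 of 4 rabbits (exact permutation p = 0.057). ICOS relative to CD28 went from -0.10 ± 0.22 to 0.80 ± 0.17 at T24 (exact permutation p = 0.0286), with the same limit, whereas at T4 the direction differed between rabbits. CD40LG relative to CD40 went from -3.31 ± 0.31 to -4.04 ± 0.13 at T24 (exact permutation p = 0.0286), but CD40LG was not above background in either group. CD80 relative to CD86 went from -1.63 ± 0.21 to -2.15 ± 0.26 after LPS at T24 (exact permutation p = 0.0286) and was lower in 4 of 4 rabbits.

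**Figure D3:**
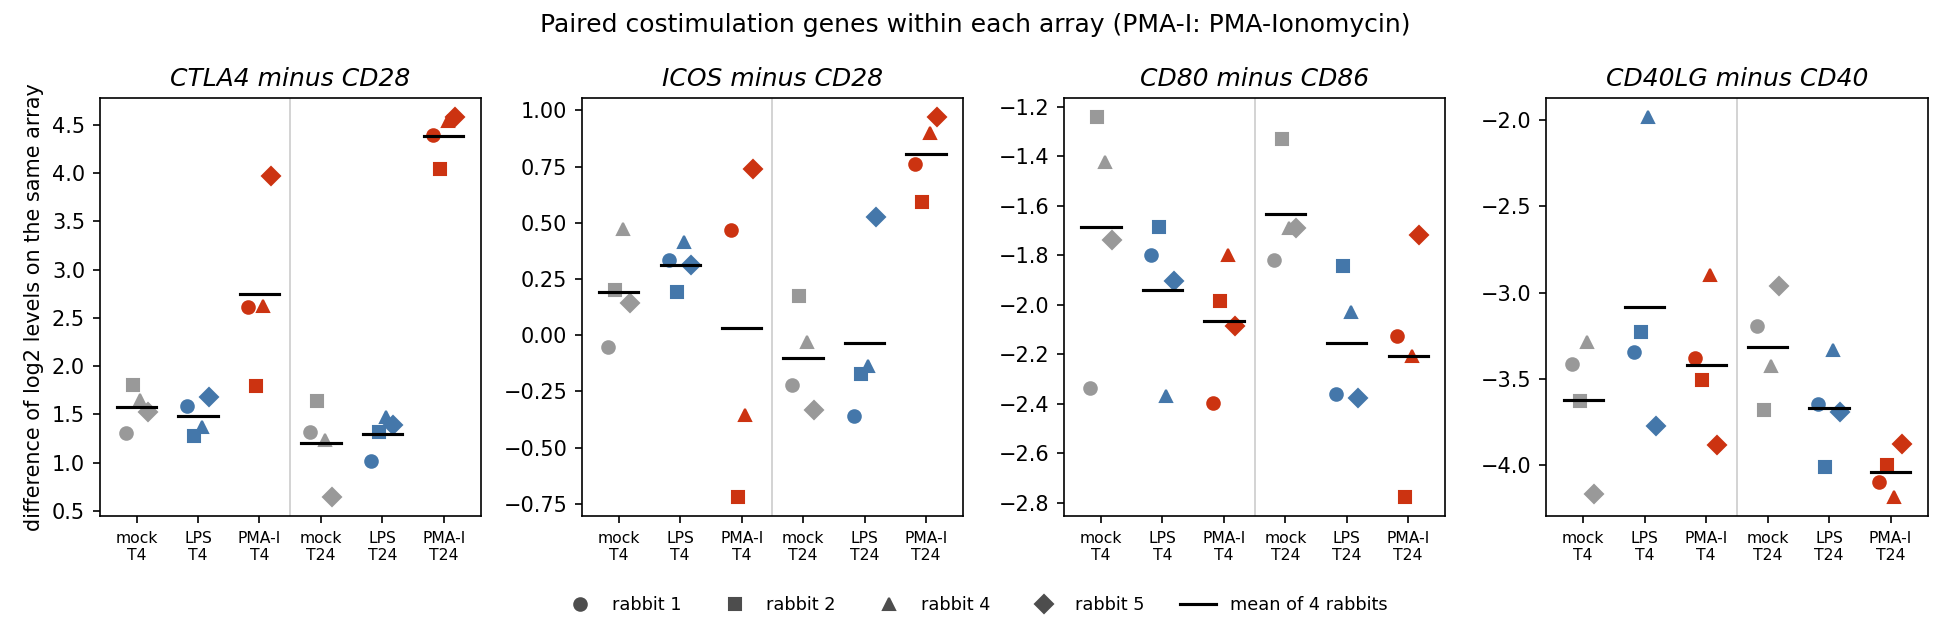
Difference of log2 levels of 2 genes on the same array (y axis) in the 6 groups (x axis), with 1 symbol per rabbit and a line at the mean. CTLA4 minus CD28 reached 4.39 after PMA-Ionomycin at T24 against 1.21 in mock-stimulated cells, and at T4 rabbit 2 stayed within the range of the mock-stimulated arrays.

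The cells that could carry these transcripts were followed by marker lists, whose part in the results was not tested. Of 10 T-cell markers 6 were found, and 0 were DE after PMA-Ionomycin at T4 and 3 at T24 (CD5 higher, CD4 and CD247 lower). The summed T-cell level per array lay between 3.61 and 4.26 in mock-stimulated cells and between 3.68 and 4.15 after PMA-Ionomycin at T4, and between 3.19 and 3.87 and between 3.55 and 3.89 at T24. Of 8 monocyte and macrophage markers found, 3 fell at T4 after PMA-Ionomycin and 7 fell at T24, with the summed level at 5.25 to 5.80 against 7.10 to 8.25 at T4 and 5.91 to 6.86 against 8.45 to 9.77 at T24. Of 5 B-cell markers found, 3 fell at each time, with the summed level at 4.28 to 5.46 against 7.96 to 9.12 at T4 and, with overlap, 6.69 to 7.87 against 7.20 to 9.38 at T24. The B-cell count at T4 depended on the scaling. Quantile normalization gave 5 lower, as did the processed signal. Normexp with quantile normalization gave 4, as did the deposited log2 values. At T24 each of these gave 3. At T24 the mean levels of CD40 and CD86 were higher after PMA-Ionomycin, where the summed monocyte and macrophage level was lower. No relation over single arrays was tested. In mock-stimulated cells 5 of 8 monocyte and macrophage markers rose from T4 to T24, where CD80 and CD86 fell. Over the same time 3 of 4 neutrophil markers and 1 of 4 dendritic-cell markers (ITGAX) rose, and 3 of 4 platelet markers fell. Of the others, 1 of 6 T-cell and 1 of 4 erythrocyte markers fell, 1 of 5 B-cell markers rose, and the 2 NK-cell markers had log2 FC of -0.51 and -0.38, short of the threshold. Of 4 dendritic-cell markers found, 1 rose at T4 after PMA-Ionomycin and 3 fell at T24, with the summed level at 4.19 to 4.57 against 3.64 to 4.24 and at 3.88 to 4.64 against 5.28 to 6.12. Of 2 NK-cell markers found, 1 fell at T4 and 2 rose at T24, of 4 platelet markers 3 fell at T4 and 1 rose at T24, and of 4 neutrophil markers 2 fell at T24. No erythrocyte marker of the 4 found was DE at T4, and 1 fell at T24.

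Genes that work with the members were counted in 5 lists, whose counts stand against the 22.8% of all genes DE after PMA-Ionomycin at T4 (13.5% higher and 9.36% lower) and the 33.7% at T24 (22.2% higher and 11.5% lower). In the B7-CD28 family and other co-signalling receptors, 16 of 25 genes were found, and after PMA-Ionomycin 6 rose and 1 fell at T4 and 6 rose and 2 fell at T24. Over the list the median log2 FC was 0.43 at T4 and 0.49 at T24, against 0.05 and 0.03 over all genes. The counts of this list at T24 depended on the scaling. Quantile normalization, alone or after normexp, gave 4 up and 3 down there, and the processed signal gave 3 up and 2 down. In the deposited log2 values 5 were up and 2 down. At T4 each of these settings gave 5 or 6 up and 1 down. SLAMF1, a self-binding receptor of T and B cells, had a log2 FC of 3.70 at T4 (SE 0.32, adjusted p = 1.0e-08). CD200 and its receptor CD200R1, an inhibitory pair, had 1.94 and 1.82 at T4. LAG3, an inhibitory receptor that binds MHC class II, had 1.55 at T4 and 4.45 at T24 (SE 0.24, adjusted p = 1.8e-12), and CD276, a B7 relative, had 1.62. CD244, a receptor of NK cells and some T cells, fell by 2.09 on the log2 scale at T24. After LPS, SLAMF1 was the only one of the 16 called, at T24 (log2 FC 1.34, SE 0.32, adjusted p = 0.040), and it kept that call in 8 of 15 alternatives.

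Of the TNF and TNF receptor family, 8 of 12 co-signalling genes were found, and after PMA-Ionomycin 2 rose and 1 fell at T4, while 4 rose and 1 fell at T24. Its median log2 FC was 0.09 at T4 and 0.42 at T24. CD70, the ligand of CD27, went from 1.33 ± 0.24 to 6.59 ± 0.12 (SD, n = 4) at T24, with a log2 FC of 5.26 (SE 0.33, adjusted p = 1.3e-11), after 1.81 at T4. At T4 it stood at 3.03 in mock-stimulated cells and 4.84 after PMA-Ionomycin. The larger FC at T24 thus goes with a lower mock level as well as a higher stimulated level. TNFRSF9 (4-1BB), a receptor induced by activation, had 1.60 at T4 and 1.59 at T24. In mock-stimulated cells at T24 it was well above background on 2 of 4 arrays. TNFRSF25, a death-domain receptor of lymphocytes, had 1.31 at T24. TNFSF8, the ligand of CD30, was at least 1.77-fold lower at T4 and at least 2.66-fold lower at T24, since it was not well above background after PMA-Ionomycin.

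In IL-2 signalling 6 of 10 genes were found, and after PMA-Ionomycin 2 rose and 1 fell at T4 and 3 rose and 3 fell at T24. The medians were -0.24 and 0.04 on the log2 scale, and the latter was -0.48 with quantile normalization, -0.21 with the processed signal, -0.47 with normexp and -0.11 in the deposited log2 table. At T4 quantile normalization gave 2 up and 3 down and normexp 2 up and 2 down, each with a median of -0.47. The processed signal and the deposited log2 table gave 2 up and 1 down at T4, with medians of -0.33 and -0.30. IL2, the T-cell growth factor, had a measured log2 FC of 5.40 at T4 (SE 0.16, adjusted p = 1.7e-16) against mock-stimulated cells in which it was well above background by most of its probes on 0 of 4 arrays, and at T24 it was at least 20.8-fold higher. IL2RG, the common chain shared by the IL-2 receptor and others, fell by 1.89 on the log2 scale at T24, and JAK1, the kinase bound to IL2RB, fell by 0.79 at T4 and 0.83 at T24. STAT5A, which acts below the receptor, had a log2 FC of 1.73 and 0.91, and SOCS1, an inhibitor of cytokine signalling, had 1.07 at T24.

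In CD28 and CD40 signalling 15 of 20 genes were found, and here more genes fell than rose after PMA-Ionomycin, with 2 up and 4 down at T4 and 1 up and 8 down at T24, where 9.36% and 11.5% of all genes were lower. Here the median log2 FC was -0.30 at T4 and -0.92 at T24. The size depended on the scaling. The processed signal gave a T24 median of -1.45, with 1 up and 11 down, and a T4 median of -0.42, with 2 up and 5 down. Quantile normalization, alone or after normexp, gave 2 up and 6 down at T4 and 1 up and 9 down at T24. The falls included VAV1, an exchange factor below CD28, with log2 FC of -1.49 and -1.65, PIK3CD, a lymphocyte PI3 kinase subunit, with -1.52 at T4, MALT1, a protease of the NF-kB pathway, with -1.71 at T4, and MAP3K14 (NIK), the kinase of the noncanonical NF-kB pathway, with -1.22 at T24. TRAF5, an adaptor of CD40, went the other way, with 2.21 and 1.87. After LPS at T4, VAV1 and MAP3K14 fell (log2 FC -1.01 and -0.78, adjusted p = 0.038 each), and both calls were lost in 9 of 15 alternatives.

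Among activation antigens and quiescence genes 10 of 14 were found, with 6 up and 1 down at T4 and 2 up and 3 down at T24. The median log2 FC was 1.13 at T4 and -0.32 at T24. The T24 median was -0.68 with quantile normalization, -0.66 with the processed signal and with normexp, and -0.47 in the deposited log2 table. In each of these 4 genes were down at T24, with 1 up for the processed signal and 2 up for the others. At T4 each gave 5 up and 1 down. EGR2 and NR4A1, early transcription factors of T-cell activation, had 2.08 and 1.65 at T4. EGR2 was well above background on 1 of 4 mock arrays at T4, so its value is set against levels near background. SLC7A5, an amino acid transporter subunit, had 1.65 at T4 and 2.14 at T24, and IL7R, the receptor of the survival cytokine IL-7, fell by 1.21 on the log2 scale at T24. SLC3A2, on the same list, had a log2 FC of 1.55 at T4 and of -0.95 at T24 (adjusted p = 0.019, limma). CD38, an activation-associated ectoenzyme, fell by 1.44 at T4 and 1.10 at T24.

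**Figure D4:**
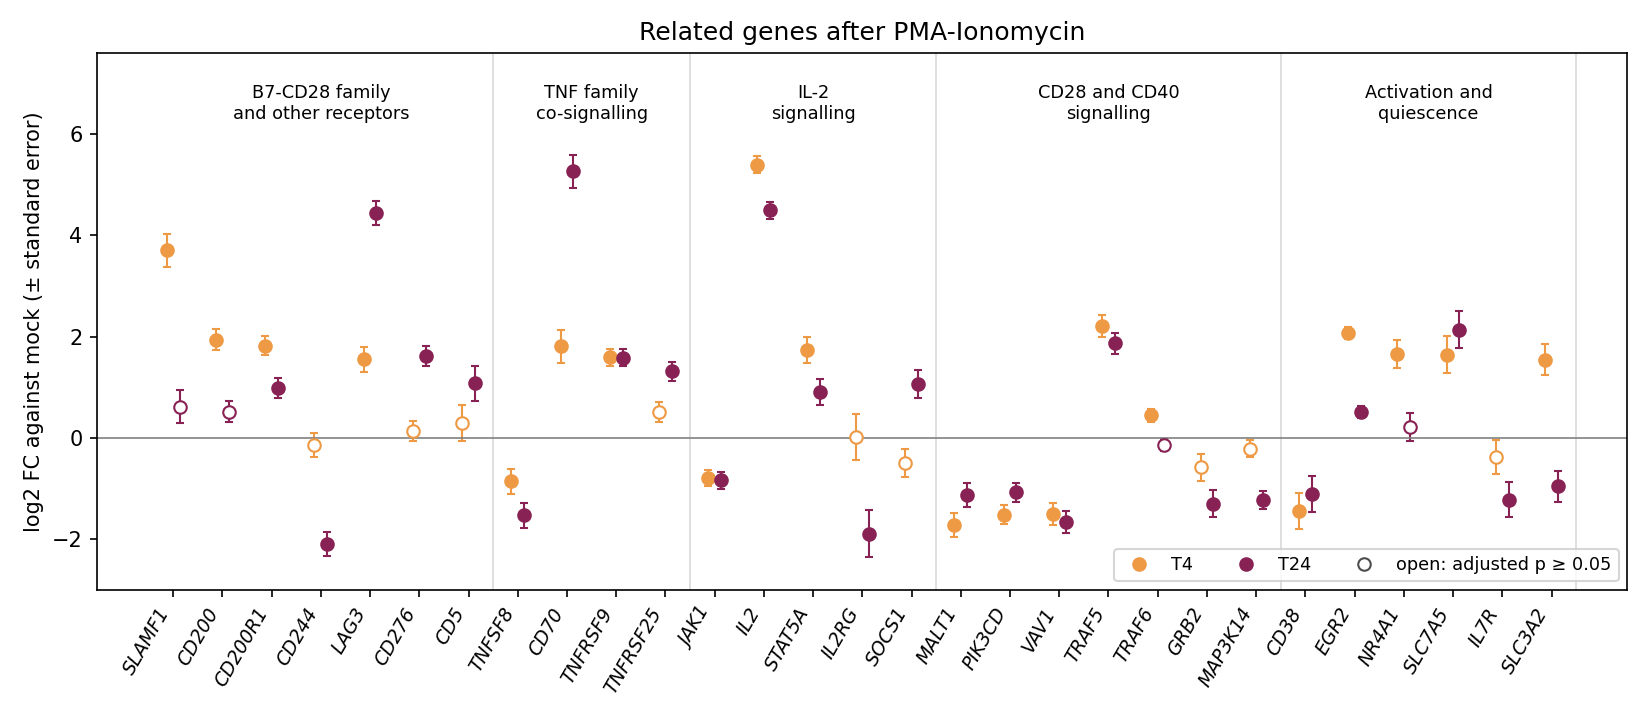
Log2 FC against mock-stimulated cells after PMA-Ionomycin (y axis, with 1 standard error) for the genes named from each list (x axis) at T4 and T24. Filled symbols passed an adjusted p of 0.05. The log2 FC of CD70 rose from 1.81 to 5.26 and that of LAG3 from 1.55 to 4.45 between the times, while that of SLAMF1 went from 3.70 to 0.62. The mock level of CD70 was 3.03 at T4 and 1.33 at T24.

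The genes whose levels followed those of a member most closely were found by the smallest root mean square difference over the 24 arrays, each gene centred on its own mean, among 6288 genes with a symbol. The arrays share groups and rabbits, so this is a description. CD69 was closest to NR4A2 (0.60 on the log2 scale), which stood at 0.75 in mock-stimulated cells and 5.05 after PMA-Ionomycin at T4 and at 1.53 after PMA-Ionomycin at T24. CTLA4 was closest to GMPS (0.35) and COL1A2 (0.36). CD28 was closest to RORB and SPRED2, ICOS to PCDH17 and NUP62CL, CD40 to NOL9 and METTL16, and CD40LG to CEBPG and C11H22orf23. CD86 was closest to CD80 (0.37), while the gene closest to CD80 was TICAM2 (0.24).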

How the data were processed

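RNA of PBMCs was hybridised on 1-colour Agilent 60-mer arrays (24 arrays, 1 per rabbit and group), and the authors extracted spots with Agilent Feature Extraction 10.7.3.1. The deposited scanner files hold spot intensity, and the deposited log2 table holds log2 median signals that were centred on the mean of all spots of an array by the authors (largest difference 5e-09, column medians -1.11 to -0.811).

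Here, after the methods of the study, log2 median intensity was centred on the array median and averaged per probe and per gene. Spots marked as outliers were dropped, a step those methods do not state. Of 28894 genes 9512 had a symbol, 439 probes through the gene list of the study. limma 3.58.1 in R 4.3.3 fitted 1 mean per group over all arrays, without a block, with Benjamini-Hochberg adjustment. In simulated data on 28778 genes for PMA-Ionomycin against mock at T4, it recovered 16% of genes changed by 0.5 on the log2 scale, 80% by 1 and 96% by 2. For the difference between the times it recovered 0%, 54% and 90%. At each size 50 genes were changed, only in the PMA-Ionomycin T4 group, with independent noise and no rabbit effect. In the data 22.8% of all genes were DE in this comparison at T4. The rates therefore describe that simulation and are not the sensitivity of the tests on the data. The number of arrays limits the precision.

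Equal numbers mark the same rabbit, and deviations from group means correlated within a rabbit (median r of 0.138 to 0.381 per rabbit). The members, lists and tests were chosen with earlier results of these data known. Named genes were each member and, from each list and comparison with mock, at most 3 rises and 3 falls, the largest among DE genes moving alike in 4 of 4 rabbits and well above background on the brighter arrays.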

Additional observations from a re-analysis of the deposited data

Results flagged for a closer look

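CD28 and CD40LG had responses to PMA-Ionomycin that differed between T4 and T24, with differences of -1.34 and -1.01 on the log2 scale (adjusted p = 0.0033 and 0.00081, limma), where 22.6% of all genes tested had such a difference. Both were at or near background at T24 and in mock-stimulated cells at T4, so no size is read from these values. Single arrays lay apart from the other 3 of their group in 3 of 48 groups of member levels, where chance gives about 1 in 20, by the gap to the nearest array over the range of the group. These were CD28 in mock-stimulated cells at T24, where rabbit 4 was the highest (0.957), CD40 in mock-stimulated cells at T4, where rabbit 5 was the highest (0.830), and CD40LG after PMA-Ionomycin at T4, where rabbit 4 was the highest (0.882). The range of the CD28 group was only -0.69 to -0.54.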

How the results depend on the processing

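Of 25 called results of members over 9 comparisons, 20 kept their direction and call in every alternative and 0 changed direction. After PMA-Ionomycin at T24, 3 members were DE in place of 5 with quantile normalization, with the processed signal and with normexp and quantile normalization, since CD40 and CD86 were lost, and 3 to 5 when a rabbit or array was left out. The processed signal moved the median log2 FC of all genes at T24 to -0.26, and relative to that median CD40 had 0.80 and CD86 0.95. The response to PMA-Ionomycin differed between the times for 4 members in place of 2 with the rabbit as a replicate block and with dim probes left out, and for 1 to 4 with a rabbit or array left out. The block changed no other call of a member. Between mock-stimulated cells at T24 and T4, 1 to 3 members were DE when a rabbit was left out. The number of pair comparisons past an unadjusted p of 0.05, 4 as reported, was 2 with quantile normalization, 3 with the processed signal and 5 with normexp. With a rabbit left out the exact test cannot go below 0.1, so no count is given there. Leaving out the PMA-Ionomycin T4 array of rabbit 2 was chosen after seeing the data.

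Values near 0 that had not passed changed sign. CD28 after LPS at T4 was -0.0013 with quantile normalization and -0.031 to 0.20 with a rabbit left out. At T24 it was 0.0076 with quantile normalization, 0.049 with the slide as a block, 0.065 with array weights and -0.10 to 0.10 with a rabbit left out. After PMA-Ionomycin at T24 it was 0.024 with the slide as a block and -0.14 to 0.045 with a rabbit left out. CTLA4 after LPS at T4 was 0.12 with quantile normalization, 0.19 with the processed signal, 0.11 with normexp, 0.019 with array weights, 0.070 over single probes and -0.055 to 0.020 with a rabbit left out, and at T24 -0.032 to 0.14. ICOS after LPS at T24 was -0.00057 with array weights and -0.10 to 0.13 with a rabbit left out. CD40LG after LPS at T4 was -0.039 with quantile normalization and -0.012 with normexp, and at T24 0.046 with the processed signal, 0.013 with normexp and -0.087 to 0.084 with a rabbit left out. After PMA-Ionomycin at T24 it was -0.26 with the processed signal, -0.11 in the deposited log2 table, -0.036 with dim probes left out and -0.053 to 0.11 with a rabbit left out. The causes were not tested.

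Over all genes, calls after LPS ranged from 0 to 1227 at T4 against 296 and from 47 to 931 at T24 against 352, those for LPS by time from 7 to 2174 against 560, and those for mock T24 against T4 from 2271 to 4626 against 3620.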
